A study of Bos taurus with 12 samples.

Results

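The activities of glutathione peroxidase (GSH-Px) and superoxide dismutase (SOD) were followed in 12 Holstein cows on day 0, the day of calving, and on days 4, 7 and 14 after it. All 12 of the 12 cows of the study were included, chosen because each has values in the deposited sheets of both enzymes. The cows were female, and 6 had received a parenteral mineral (trace element) supplement while 6 were controls. The sources used here do not give the elements injected, their dose, the day of injection, what the controls received, or the cows' age and parity. RNA of blood drawn from the jugular vein on day 7 was sequenced for the same cows, with 1 library for each. The comparisons below set days against each other within cows. They ask whether a cow kept its place among the cows between days, and whether the enzymes moved together.

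Glutathione peroxidases reduce hydrogen peroxide and lipid peroxides with glutathione as the electron donor, and several of them carry selenium in the active site as selenocysteine. Superoxide dismutases turn superoxide into hydrogen peroxide and oxygen, using copper and zinc in the cytosol and outside the cell, and manganese in mitochondria. SOD therefore makes a substrate that GSH-Px removes. In dairy cows the weeks around calving bring a steep rise in metabolic demand as lactation starts, and both activities in blood are in common use as measures of antioxidant and trace element status.

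The unit, the assay and the material (plasma, whole blood or lysed red cells) of the activities are not stated in the sources used here, so all values below are on the deposited scale, and the levels of the enzymes cannot be set against each other. GSH-Px was given for 48 of 48 combinations of cow and day, with 48 distinct values. SOD was given for 46 of 48, since supplemented cows 3 and 6 had no value on day 4. Among the SOD values, 6 recurred to the last digit (within 1e-12) in another cell. These were 0.731 in supplemented cow 2 on day 0 and control cow 3 on day 7, 0.613 in control cow 3 on days 0 and 4, and 0.285 in control cow 5 on days 7 and 14. How these came about was not tested. Comparisons of days within cows, and correlations of SOD between days and with GSH-Px, were also computed without them. SOD slopes, changes by group, agreement of ranks over all days (Kendall's W) and correlations with other readouts or transcripts were not.

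GSH-Px activity had a higher mean on each later day, but no difference between days exceeded the spread within cows. It averaged 73.4 ± 15.3 on day 0, 78.0 ± 13.4 on day 4, 82.9 ± 17.9 on day 7 and 84.5 ± 24.2 on day 14 (SD, n = 12 cows). The values of all cows ran from 41.2 to 95.4 (median 74.6) on day 0, from 55.8 to 105 (median 79.9) on day 4, from 53.2 to 124 (median 82.8) on day 7 and from 50.7 to 133 (median 81.5) on day 14. The ranges of all 4 days overlapped. The ranking of the days within cows did not differ by an exact Friedman test (statistic 1.90, p = 0.622, adjusted p = 0.933 over 6 such tests). The highest value fell on day 0 in 2 cows, on day 4 in 3, on day 7 in 4 and on day 14 in 3, and the lowest on day 0 in 4 cows, on day 4 in 2, on day 7 in 2 and on day 14 in 4.

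**Figure D1:**
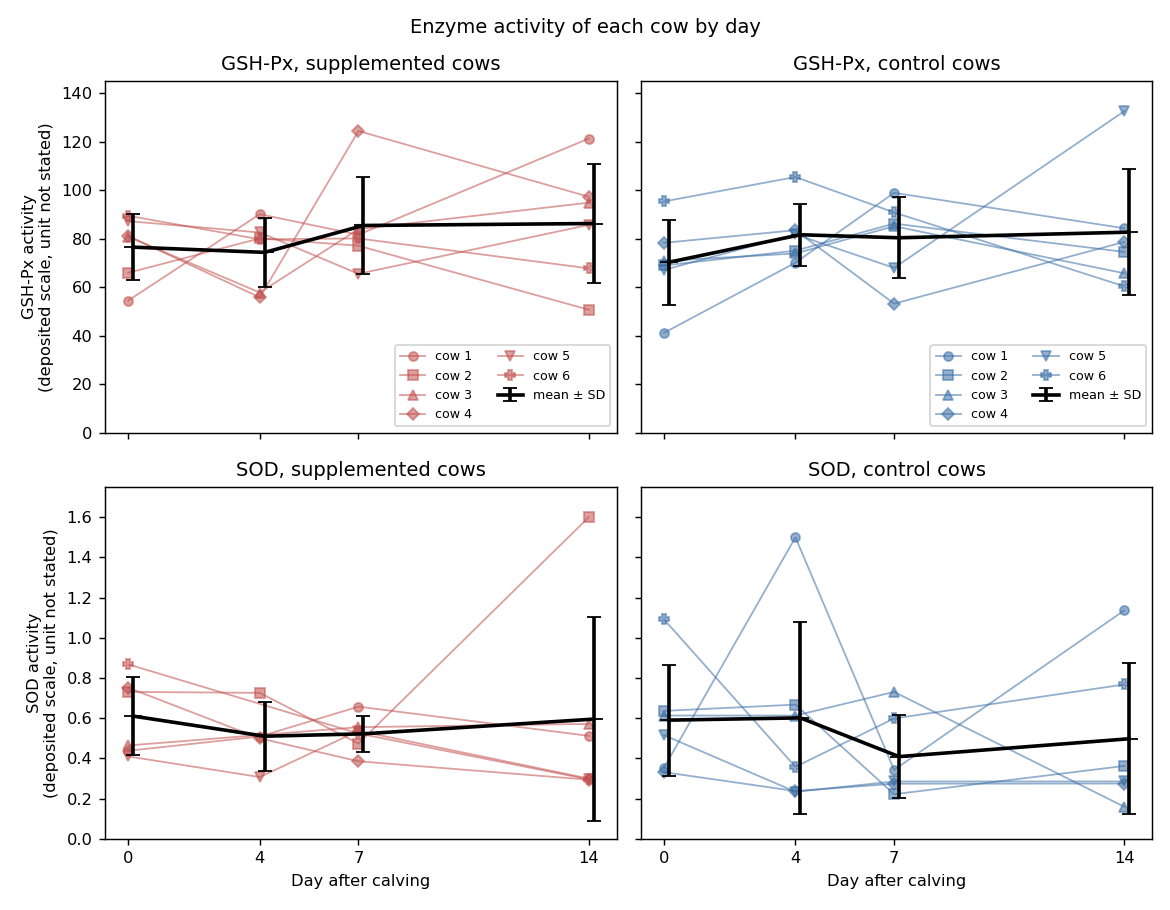
Activity of GSH-Px (top) and SOD (bottom) in each supplemented cow (left) and each control cow (right) against day after calving, on the deposited scale with the unit not stated; thin lines join the values of a cow, and black lines give the mean ± SD. The lines of supplemented cows 3 and 6 pass over day 4 in the SOD panel, where neither has a value; the SOD mean on day 14 lies above 5 of 6 supplemented cows and 4 of 6 control cows.

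Between the day of calving and the later days, the mean paired difference in GSH-Px was 11.1 ± 9.36 (SE, n = 12) for day 14 minus day 0, which is 15.1% of the day 0 mean, and 7 of 12 cows were higher on day 14. An interval covering 95.8% was taken from the averages of all pairs of cows. It belongs to the median of these averages (7.26) and not to the mean, as do the intervals below, and ran from -10.5 to 32.9. The mean was tested by an exact two-sided sign-flip permutation (p = 0.262, adjusted p = 0.864 over 12 differences of the enzymes). The difference between day 7 and day 0 was 9.51 ± 7.12 (SE), with 8 of 12 cows higher on day 7 and an interval from -6.94 to 27.1 (exact p = 0.214, adjusted p = 0.864). On day 4 it was 4.59 ± 5.32 (SE) relative to day 0, again with 8 of 12 cows higher (interval -8.45 to 17.1, exact p = 0.403, adjusted p = 0.864). A fall of 14.3% or a gain of 44.8% by day 14 would lie within these limits. Single cows moved in both directions: the paired difference for day 14 minus day 0 was 66.8 in supplemented cow 1 and 65.5 in control cow 5, against -35.0 in control cow 6.

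SOD activity differed between days by less than the spread within cows as well. It averaged 0.600 ± 0.229 on day 0 (SD, n = 12), 0.565 ± 0.372 on day 4 (n = 10), 0.466 ± 0.163 on day 7 (n = 12) and 0.547 ± 0.429 on day 14 (n = 12). The values ran from 0.332 to 1.09 (median 0.565) on day 0, from 0.234 to 1.50 (median 0.504) on day 4, from 0.222 to 0.731 (median 0.499) on day 7 and from 0.160 to 1.60 (median 0.331) on day 14. The mean stood above the median on days 0, 4 and 14 and below it on day 7. By the exact Friedman test over the 10 cows with all 4 days, the statistic was 2.51 (p = 0.492, adjusted p = 0.933).

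The lowest p of the 12 paired differences between days belonged to SOD on day 7, which was lower than on day 0 in 8 of 12 cows. The mean difference, day 7 minus day 0, was -0.135 ± 0.0706 (SE), or -22.5% of the day 0 mean, with an interval from -0.323 to 0.0535 (exact sign-flip p = 0.0850, adjusted p = 0.864). The largest difference in this pair was -0.493 in control cow 6, and 0.219 in supplemented cow 1 was the largest in the other direction. SOD on day 14 was lower than on day 0 in 8 of 12 cows, with a mean difference of -0.0538 (exact sign-flip p = 0.693, adjusted p = 0.924). The median of the pairwise averages was -0.134, with an interval from -0.344 to 0.276. Of the 12 paired differences, 0 passed an adjusted p of 0.05, and 0 had an unadjusted p under 0.05. The exact sign-flip test on signed ranks also called 0. Without supplemented cow 1 the difference in SOD between days 7 and 0 was -0.167 (exact permutation p = 0.0381, adjusted p = 0.457).

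**Figure D2:**
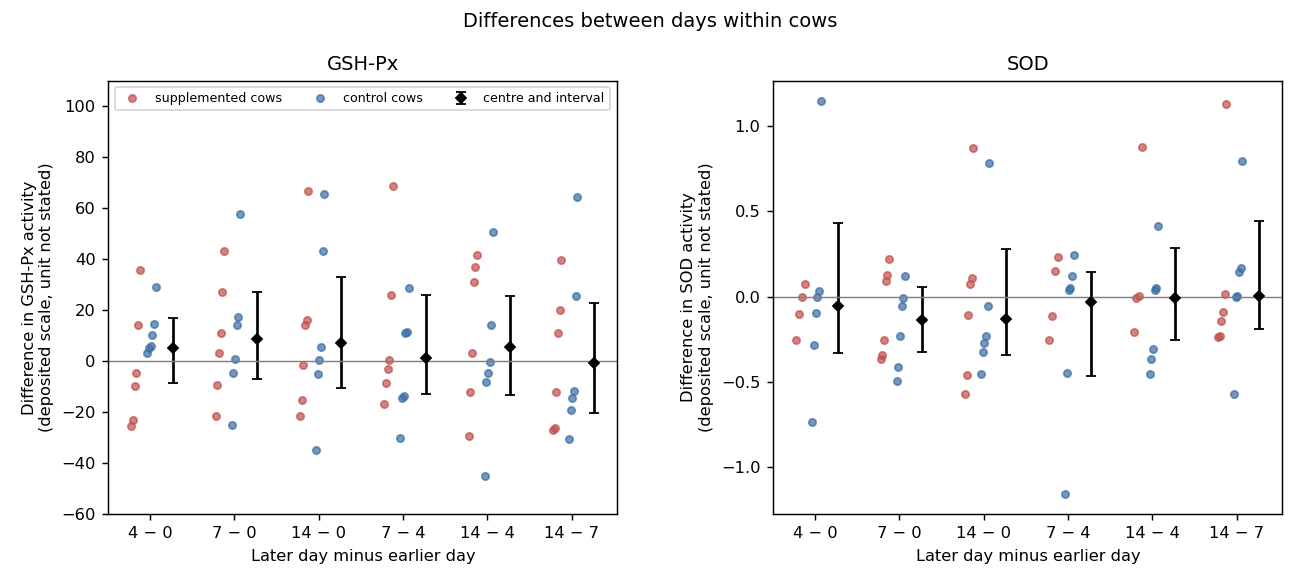
Differences within cows, later day minus earlier day, for GSH-Px (left) and SOD (right) on the deposited scale with the unit not stated; red points are supplemented cows, blue points control cows, and the black diamond and bar give the centre (median of the pairwise averages) and its interval over both groups. Every interval includes 0, and single SOD differences reach 1.15 (control cow 1, day 4 minus day 0) and -1.16 (the same cow, day 7 minus day 4).

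A line fitted to the 4 days of each cow gave a mean slope of 0.789 ± 2.34 units of GSH-Px per day (SD, n = 12), with 6 cows sloping up and 6 down (exact sign-flip p = 0.262, adjusted p = 0.523 over 2). For SOD the mean slope was -0.00430 ± 0.0294 per day, with 4 cows up and 8 down (exact p = 0.620, adjusted p = 0.620). Supplemented cow 2 had the steepest SOD slope, 0.0625 per day, and without it the mean was -0.0104 (exact permutation p = 0.141, adjusted p = 0.198).

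In supplemented cows alone, GSH-Px averaged 76.5 ± 13.5, 74.4 ± 14.1, 85.4 ± 20.1 and 86.3 ± 24.6 on days 0, 4, 7 and 14 (SD, n = 6). In control cows alone it averaged 70.3 ± 17.6, 81.6 ± 12.7, 80.4 ± 16.7 and 82.7 ± 25.9 on the same days (SD, n = 6). The exact Friedman test over days gave a statistic of 0.600 (p = 0.940, adjusted p = 0.940) in supplemented cows and of 4.6 (p = 0.218, adjusted p = 0.933) in control cows. SOD averaged 0.610 ± 0.196, 0.510 ± 0.171 (n = 4), 0.522 ± 0.0901 and 0.595 ± 0.507 in supplemented cows, and 0.590 ± 0.277, 0.602 ± 0.477, 0.409 ± 0.206 and 0.498 ± 0.376 in control cows (SD, n = 6 except where given). The exact Friedman p for SOD was 0.928 in the 4 supplemented cows with all days and 0.414 in the 6 control cows. For all but 1 of the paired differences in a group, cows lay on both sides of 0.

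That exception was GSH-Px between day 4 and day 0 in control cows, where all 6 cows were higher on day 4. On day 4 the control cows had 70.1, 75.1, 73.9, 83.5, 81.8 and 105 (cows 1 to 6), against 41.2, 69.0, 70.8, 78.3, 67.1 and 95.4 on day 0. The mean difference was 11.3 ± 9.55 (SD, n = 6), and the smallest was 3.06 in control cow 3 and the largest 28.9 in control cow 1. An exact sign-flip test over 6 cows cannot give less than p = 0.03125, which is the value found, and after adjustment over the 12 differences of the group it was 0.375, so the difference did not pass. In supplemented cows the same difference was -2.15 ± 23.4 (SD, n = 6), and 2 of 6 were higher on day 4. The groups' changes were compared directly: the change in supplemented cows minus that in control cows was -13.5 (exact two-sided permutation over 924 splits of the cows, p = 0.219, adjusted p = 0.948 over 12). Without supplemented cow 1, which had 90.1 on day 4 against 54.5 on day 0, it was -21.0 (exact permutation p = 0.0260, adjusted p = 0.312). Hence the control cows' shared direction was not shown to differ from the mixed directions of the supplemented cows. Of the 12 tests of a change by group over all cows, 0 passed, and 0 had an unadjusted p under 0.05. Among the 12 paired differences within supplemented cows 0 had an unadjusted p under 0.05 (lowest exact p = 0.344), and among those within control cows it was the 1 given above.

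The spread between cows was wider in SOD than in GSH-Px on all 4 days. The coefficient of variation, the SD as a percent of the mean, was 20.9%, 17.1%, 21.5% and 28.6% for GSH-Px on days 0, 4, 7 and 14. For SOD it was 38.1%, 65.9%, 35.0% and 78.4%. The highest cow exceeded the lowest by 2.32-fold, 1.89-fold, 2.34-fold and 2.61-fold in GSH-Px, and by 3.29-fold, 6.42-fold, 3.30-fold and 10.03-fold in SOD. On day 14 the SOD of supplemented cow 2 (1.60) and of control cow 1 (1.14) stood above the other cows, which ran from 0.160 in control cow 3 to 0.768 in control cow 6. These spreads are descriptions and were not tested. Since the scale of each assay is unknown, a coefficient of variation assumes that 0 on the deposited scale means no activity.

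Within a cow, the highest of the 4 GSH-Px values was 1.25-fold to 2.40-fold the lowest, with a median of 1.61-fold. The steadiest was control cow 2, with 69.0, 75.1, 86.2 and 74.5 on days 0, 4, 7 and 14. The least steady was control cow 1, with 41.2, 70.1, 98.9 and 84.3, the lowest cow on day 0 and the second highest on day 7. Supplemented cow 4 was the lowest of 12 cows on day 4 (55.8) and the highest on day 7 (124), with 81.2 on day 0 and 97.3 on day 14. Supplemented cow 2 had 65.9, 80.1, 77.1 and 50.7, which made it the lowest of all on day 14.

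SOD moved over a wider range within cows, 1.23-fold to 4.58-fold with a median of 2.75-fold. Control cow 3 had 0.613 on days 0 and 4, then 0.731 on day 7, the highest value of that day, and 0.160 on day 14, the lowest of any cow on any day. Control cow 1 had 0.353, 1.50, 0.343 and 1.14 on the 4 days. Control cow 4 stayed lowest or second lowest on each day, with 0.332, 0.237, 0.274 and 0.275. The highest SOD of a cow fell on day 0 in 5 cows, on day 4 in 2, on day 7 in 3 and on day 14 in 2.

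In GSH-Px, 0 of 6 correlations between the cows' ranks on different days passed, and 5 of the 6 were negative. Spearman's rho between pairs of days was 0.105 (days 4 and 0), -0.00699 (days 7 and 0), -0.224 (days 14 and 0), -0.524 (days 7 and 4), -0.119 (days 14 and 4) and -0.0699 (days 14 and 7; n = 12 cows each). The strongest, between days 7 and 4, was negative (permutation p = 0.0843, adjusted p = 0.506 over 12 pairs of both enzymes; Pearson's r = -0.458, permutation p = 0.131). It was -0.657 within supplemented cows and -0.371 within control cows, and without supplemented cow 4 and control cow 6, the 2 cows farthest from the day 4 median, rho was -0.733 (n = 10, permutation p = 0.0202, adjusted p = 0.242) and Pearson's r was -0.510 (permutation p = 0.131). Without control cow 6 alone, rho was -0.800 (n = 11, permutation p = 0.00466, adjusted p = 0.0559). Only 2 of 12 cows lay on the same side of the median on days 4 and 7, against 6 of 12 for each other pair of days. Kendall's W, which is 1 where all days rank the cows alike, was 0.145 over the 4 days (permutation p = 0.878, adjusted p = 0.878 over 2).

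In SOD no correlation between the cows' ranks on different days passed either, and the enzymes were not compared in this by a test. Spearman's rho was positive for all 6 pairs of days, at 0.152 (days 4 and 0, n = 10), 0.189 (days 7 and 0), 0.112 (days 14 and 0), 0.103 (days 7 and 4, n = 10), 0.588 (days 14 and 4, n = 10) and 0.0909 (days 14 and 7). Days 14 and 4 had the highest value (permutation p = 0.0808, adjusted p = 0.506; Pearson's r = 0.574, permutation p = 0.0961), and 8 of 10 cows were on the same side of the median on both. Control cow 1 was highest of 10 on day 4 and second highest of 12 on day 14, and without it and control cow 5, which lie farthest from the day 4 median, Pearson's r was 0.431 (n = 8, exact permutation p = 0.312). Without the SOD values that recur, rho between days 14 and 4 was 0.762 (n = 8, exact permutation p = 0.0368, adjusted p = 0.441). Pearson's r was below 0 for 3 of the 6 pairs.

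Kendall's W for SOD was 0.421 over the 10 cows with all days (permutation p = 0.0633, adjusted p = 0.127). It depended on single cows. Without control cow 4, which held rank 1 or 2 on every day, W was 0.294 (permutation p = 0.320, adjusted p = 0.641), whereas without control cow 3, whose rank ran from 1 to 12, it was 0.506 over 9 cows (permutation p = 0.0190, adjusted p = 0.0380) and passed. With values centred on the mean of their treatment group and day, W was 0.339 (permutation p = 0.191, adjusted p = 0.383). W was not computed without the recurring SOD values, which control cow 3 held on days 0, 4 and 7.

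**Figure D3:**
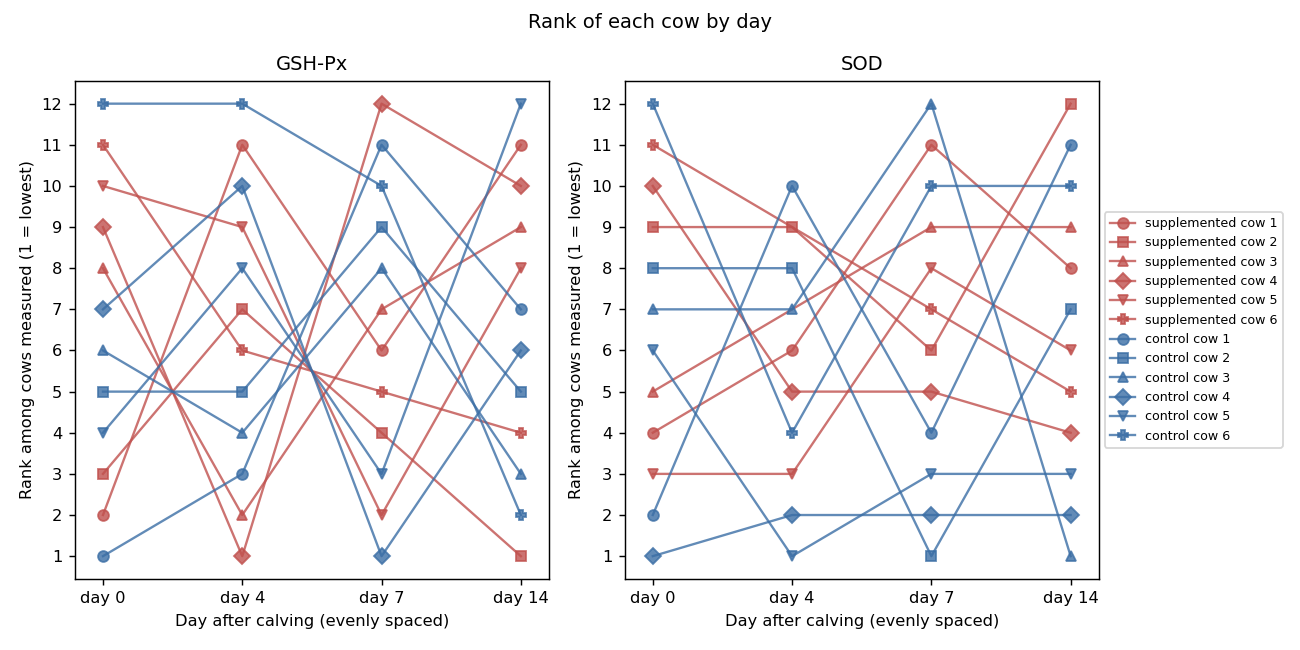
Rank of each cow among the cows measured on a day (1 is the lowest) in GSH-Px (left) and SOD (right), on evenly spaced days; red marks are supplemented cows and blue marks control cows. SOD was ranked over 10 cows on day 4, and the lines of supplemented cows 3 and 6 pass over that day. Control cow 4 holds rank 1 or 2 in SOD throughout, and its GSH-Px rank runs from 1 to 10.

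The span between a cow's lowest and highest rank was 4 to 11 places in GSH-Px (median 8.5) and 1 to 11 places in SOD (median 6). Differences between cows made up 13.7% of the sum of squares of GSH-Px, where the degrees of freedom alone give cows 23.4%. Days made up 5.91%, and 80.4% lay in changes that neither a cow's mean nor the day's mean describes. The intraclass correlation was -0.139. In SOD, over the 10 cows with all days, cows made up 36.6% (23.1% from the degrees of freedom), days 2.86% and the remainder 60.5%, with an intraclass correlation of 0.169. The share of cows in SOD was similar within supplemented cows (38.1%, 4 cows) and within control cows (35.3%, 6 cows). Since replicate assays of a sample are not among the values used here, variation of the assay and variation of the animal within the remainder cannot be told apart.

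Of 5 correlations between GSH-Px and SOD of the same cows (4 days and the means over days), 0 passed, 0 had an unadjusted p under 0.05, and the sign differed between days. On day 0 Spearman's rho was 0.476 (n = 12, permutation p = 0.121, adjusted p = 0.333 over 5) and Pearson's r was 0.562 (permutation p = 0.0579, adjusted p = 0.290). Control cow 6 had the highest values of both enzymes that day (95.4 and 1.09) and control cow 1 the lowest GSH-Px and the second lowest SOD (41.2 and 0.353). Without these 2 cows, which lay farthest from the day 0 median of GSH-Px, r was 0.190 and rho 0.164 over a narrower range of GSH-Px (n = 10). Leaving out each single cow gave rho from 0.318 to 0.618. Without the SOD values that recur, rho was 0.600 (n = 10, permutation p = 0.0745, adjusted p = 0.373). On day 4 rho was -0.515 (n = 10, permutation p = 0.133, adjusted p = 0.333; r = -0.384), on day 7 it was 0.119 (adjusted p = 0.716; r = 0.0727) and on day 14 it was -0.245 (adjusted p = 0.661; r = -0.380).

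**Figure D4:**
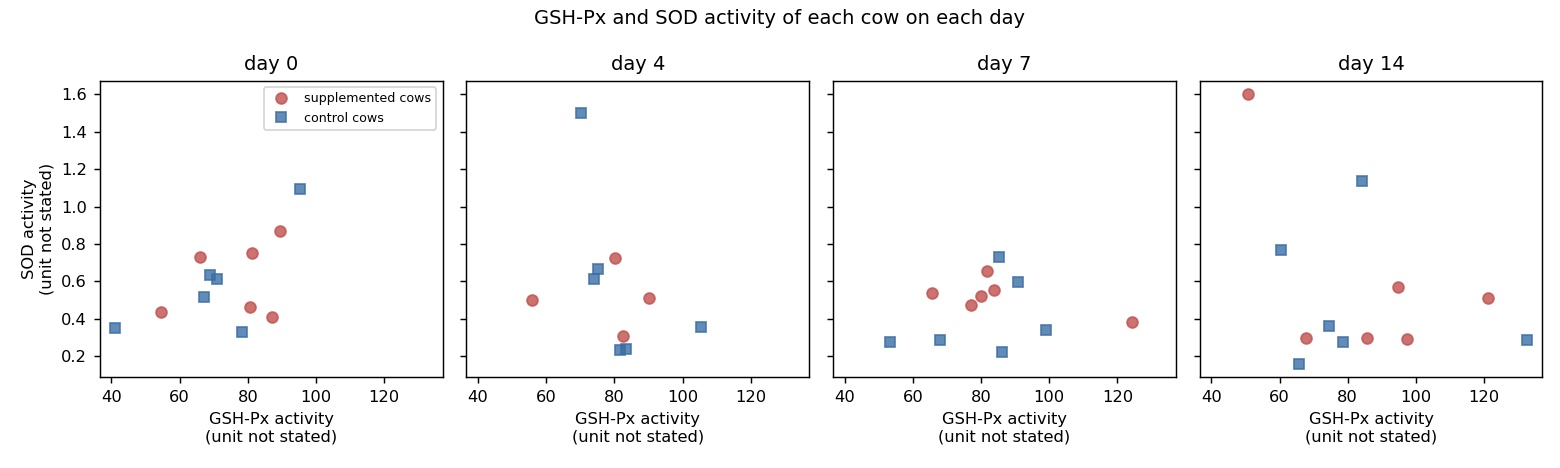
SOD activity against GSH-Px activity of each cow on days 0, 4, 7 and 14, on the deposited scales with units not stated; red circles are supplemented cows and blue squares control cows. The points spread upward to the right on day 0, where rho was 0.476, and downward on day 4, where it was -0.515; on days 4 and 14 the cows with the highest SOD have GSH-Px at or below 84.3.

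The cows' means over days gave rho = -0.203 between the enzymes (n = 12, permutation p = 0.529, adjusted p = 0.661; r = -0.327, permutation p = 0.297). Within treatment groups, rho on day 0 was 0.371 in supplemented cows and 0.371 in control cows (n = 6 each, exact p = 0.497 each). On day 4 it was -0.714 in control cows (exact p = 0.136), and supplemented cows, of which 4 had both values, were not tested. On day 14 it was -0.314 in supplemented cows and 0.0857 in control cows.

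Of 6 correlations between the changes of the enzymes, 0 passed and 0 had an unadjusted p under 0.05. The change in GSH-Px and the change in SOD of a cow had rho = 0.406 between day 4 and day 0 (n = 10), 0.0280 between day 7 and day 0 and 0.329 between day 14 and day 0 (n = 12 each). Between day 7 and day 4 rho was -0.588 (n = 10, permutation p = 0.0809, adjusted p = 0.486; r = -0.463, permutation p = 0.164), between day 14 and day 4 it was -0.236 (n = 10) and between day 14 and day 7 it was -0.301 (n = 12). Without the SOD values that recur, it was 0.600 between day 14 and day 0 (n = 9, exact p = 0.0968), -0.667 between day 14 and day 4 (n = 8, exact p = 0.0831) and -0.527 between day 14 and day 7 (n = 10, permutation p = 0.124), each with an adjusted p of 0.186. The cow with the largest gain in GSH-Px between day 7 and day 4, supplemented cow 4 (124 on day 7 against 55.8 on day 4), had SOD of 0.386 on day 7 against 0.500 on day 4. Over all 46 values with both enzymes, each taken as its difference from the cow's mean, Pearson's r was -0.129, given as a description because values of a cow are not independent. The relation of the enzymes over a cow's own days was positive in 4 cows and negative in 8.

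Other readouts of the same cows were AC and TBARS, measured on the same 4 days, and a milk value of day 30, all with unit and material not stated. TBARS, thiobarbituric acid reactive substances, are a common measure of lipid peroxidation, and AC is named by its abbreviation as deposited. Across cows, 0 of 18 correlations of an enzyme with these readouts passed, each with an adjusted p of 1, and 0 had an unadjusted p under 0.05. The largest was between SOD and AC on day 0 (rho = -0.476, n = 12, permutation p = 0.122; r = -0.474, permutation p = 0.120). With values centred on the treatment group it was -0.741 (permutation p = 0.00797, adjusted p = 0.143). SOD and TBARS on day 14 had r = 0.545 (permutation p = 0.0578) and rho = 0.174 (permutation p = 0.591). With milk, the cow mean of GSH-Px had rho = 0.236 (permutation p = 0.455) and that of SOD rho = 0.102 (permutation p = 0.752). Without supplemented cows 2 and 4, whose mean GSH-Px lay farthest from the median, rho with milk was 0.750 for GSH-Px (n = 10, permutation p = 0.0165, adjusted p = 0.297; r = 0.635).

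For day 7 the activities could be set beside the transcripts of the enzymes in blood. The 12 libraries held 6.78 M to 16.9 M counts over 27429 genes, and haemoglobin genes made up 0.000239% to 0.0343% of the counts. Haemoglobin RNA had been depleted, and its share without depletion is not known. PTPRC, which encodes the leukocyte antigen CD45, stood at 1332 to 2401 CPM (counts scaled to library size with TMM factors), and markers of T cells, B cells, monocytes, neutrophils, NK cells, red cell precursors and platelets were each found above 0 in some library. The markers GNLY, HBA1 and PF4 were not found by symbol and are not analysed here. Supplemented cow 6 stood apart in the neutrophil genes: S100A12, a calcium-binding protein of neutrophils, had 38664 CPM there, against at most 5401 CPM in the other cows. GPX1, the cytosolic glutathione peroxidase, was highest in the same cow with 1550 CPM, against at most 852 CPM elsewhere. On day 7 this cow ranked 5 of 12 in GSH-Px activity (80.1) and 7 of 12 in SOD activity (0.524), counted from the lowest.

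Of the 13 genes of the glutathione peroxidases, of superoxide dismutases and of proteins acting on them, 10 were found by symbol and 8 had a mean count of at least 10. GPX2, GPX5 and GPX6 were not found. GPX8 had 1 count in all libraries together, and SOD3, the extracellular superoxide dismutase, had a mean of 3.75 counts. Each enzyme's activity was correlated with all 11990 genes of at least that mean count, and p-values were adjusted over all of them. Of these genes, 14.4% had an unadjusted p of 0.05 or less with GSH-Px and 5.37% with SOD, and 0% passed adjustment with either enzyme. Of the members, 1 of 5 reached an unadjusted p of 0.05 with GSH-Px and 1 of 3 with SOD, and 0 passed adjustment. The median rho was -0.497 over the 5 members against 0.0769 over all genes for GSH-Px, and -0.322 over the 3 members against 0.0699 over all genes for SOD. In blood as a whole, fewer cells of a type and less RNA per cell cannot be told apart.

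GSH-Px activity and GPX3, the glutathione peroxidase that is secreted into plasma, had rho = -0.678 (n = 12, permutation p = 0.0191, adjusted p = 0.335) and Pearson's r = -0.124 (permutation p = 0.500). GPX3 had 2.27, 4.62, 0.409, 1.28, 2.63 and 68.3 CPM in supplemented cows 1 to 6, and 2.14, 0.396, 0.814, 5.43, 9.16 and 0.996 CPM in control cows 1 to 6. Supplemented cow 6 held 831 of the 1089 raw counts of GPX3. The other cows had 3 to 63 counts each, so their order rests on few counts. Control cows 4 and 5, which had the highest GPX3 after supplemented cow 6, had GSH-Px of 53.2 and 68.0. Supplemented cow 4, with the highest GSH-Px (124), had 1.28 CPM. Supplemented cow 6 itself, with the highest GPX3, had GSH-Px of 80.1, rank 5 of 12 on that day. The rank correlation was -0.266 with values centred on the treatment group. The 68.3 CPM of supplemented cow 6 lifted its group's mean far above the other supplemented cows. After centring, those cows all ranked below every control cow in GPX3, so this value cannot describe the relation within groups. GPX3 ran with neutrophil markers across cows (rho = 0.909 with the sum of CSF3R, CXCR2, S100A8, S100A9 and S100A12), but not with them alone. Its rho was -0.874 with B cell markers, and with the other marker lists it ran from 0.524 (PTPRC) to 0.846 (monocytes). The neutrophil sum had rho = -0.601 with GSH-Px activity, with 5 of 5 markers negative and none at 0 in all libraries. The sum ran from 830 to 92339 CPM in supplemented cows and from 427 to 12050 CPM in control cows. Red cell markers (HBA, HBB and ALAS2) had rho = -0.706 with GSH-Px activity, their sum running from 6.96 to 383 CPM in supplemented cows and from 2.99 to 292 CPM in control cows. Since haemoglobin RNA had been depleted, the level of HBA and HBB in the blood and the completeness of depletion cannot be told apart. For the other lists, rho with GSH-Px activity was -0.580 for platelets, -0.490 for monocytes, -0.441 for T cells and -0.203 for NK cells. It was 0.420 for B cells and 0.0140 for PTPRC. The part of these cells in the relation was not tested.

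The remaining transcripts of the GSH-Px group did not reach an unadjusted p of 0.05 with TMM scaling. The rank correlation with GSH-Px activity was -0.413 for GPX1, -0.497 for GPX4, which reduces lipid peroxides in membranes, 0.280 for GPX7, an enzyme of the endoplasmic reticulum, and -0.497 for GSR, the reductase that regenerates glutathione. With DESeq2 size factors GPX4 had -0.594 (permutation p = 0.0464, adjusted p = 0.349).

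SOD activity and CCS, the chaperone that loads copper into the copper and zinc superoxide dismutase, had rho = -0.671 (n = 12, permutation p = 0.0202, adjusted p = 0.698) and r = -0.554 (permutation p = 0.0619). CCS had 38.0, 21.1, 36.4, 39.9, 39.9 and 21.9 CPM in supplemented cows 1 to 6, and 51.8, 57.5, 39.2, 53.7, 40.1 and 36.5 CPM in control cows 1 to 6. Control cows 2 and 4 had the highest CCS and the lowest SOD activity of that day (0.222 and 0.274). At the other end, supplemented cows 2 and 6, with the lowest CCS, had SOD of 0.474 and 0.524, near the day 7 median. Control cow 3, with the highest SOD (0.731, a recurring value), had CCS of 39.2 CPM. Centring on the treatment group gave rho = -0.594, and counts scaled to the library total alone gave rho = -0.524 (permutation p = 0.0835, adjusted p = 0.728). Across the 8 marker lists, rho of the summed level with CCS ran from -0.469 (PTPRC, the leukocyte marker) to 0.322 (platelets), with -0.0210 for neutrophils. With SOD activity, the sums of NK cell and platelet markers each had rho = -0.622 (2 of 2 markers negative in each), neutrophils -0.420 (5 of 5) and B cells 0.336 (0 of 3). The part of these cells in the relation was not tested. For the enzymes themselves, rho with SOD activity was -0.119 for SOD1, the cytosolic copper and zinc enzyme, which ran from 92.7 to 177 CPM, and -0.322 for SOD2, the mitochondrial manganese enzyme. SOD2 reached 4891 CPM in supplemented cow 6, against at most 340 CPM in the other cows, and the SOD activity of that cow (0.524) was near the day 7 median of 0.499.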

How the data were processed

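GSH-Px, SOD, AC, TBARS and milk values were used as deposited, and gene counts as deposited raw read counts per gene. FastQC, STAR, featureCounts and DESeq2 with the build ARS-UCD1.2 are named in the submitters' processing notes, while the annotation and the strand setting are not stated. Cows were grouped by the treatment label; replicate numbers follow accession order and pair nothing. The enzymes, tests and gene list were chosen with earlier results of these data known.

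Days were compared within cows by exact Friedman and exact sign-flip tests, with intervals from Walsh averages, and changes between groups by exact permutation. Correlations and Kendall's W used 100000 permutations (correlations with n under 10, exact enumeration). All tests except Friedman and W, which have no direction, were two-sided, with Benjamini-Hochberg adjustment within each family at 0.05 (over all genes tested for transcripts). Named genes were the isozymes of both enzymes, GSR and CCS. CPM used edgeR's TMM scaling, and genes needed a mean count of 10. DESeq2 served as an alternative scaling and no count test was run. The statistics were checked on simulated data. R 4.3.3, edgeR 4.0.16, DESeq2 1.42.0, Python 3.11.15, numpy 2.4.6, scipy 1.17.1 and pandas 2.3.3 were used. P-values rest on separate animals but cover the spread between these 12 cows only.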

Additional observations from a re-analysis of the deposited data

Results flagged for a closer look

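In 16 sets of 6 or fewer cows (2 enzymes, 2 groups, 4 days), 4 single values stood far from the rest of their set. Their gap to the next value was 0.657 to 0.787 of the range of the set. The rule has a nominal rate of about 1 set in 20 by chance, and whether that rate holds for these values was not tested. GSH-Px of supplemented cow 4 on day 7 was 124.4, against 65.52 to 83.92 in the other supplemented cows, and without this cow the mean difference between days 7 and 0 over 11 cows was 6.45. GSH-Px of control cow 5 on day 14 was 132.56, against 60.35 to 84.30 in the other control cows, and without it the mean difference between days 14 and 0 was 6.14. SOD of supplemented cow 2 on day 14 was 1.60, against 0.294 to 0.572 in the other supplemented cows, and without it the mean difference between days 14 and 0 was -0.138. SOD of control cow 1 on day 4 was 1.50, against 0.234 to 0.668 in the other control cows, and without it the mean difference between days 4 and 0 was -0.152. None of these 4 differences passed with or without the cow. The cause of the 4 values was not tested.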

How the results depend on the processing

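Under the other settings tried, among them the removal of recurring SOD values, chosen after seeing the data, 0 tests passed adjustment, with the exception of Kendall's W of SOD without control cow 3. W of SOD ran from 0.294 to 0.506 when each cow was left out. The Friedman test on log2 values is the same by construction, and it called 0 without any cow or day. Directions that turned all belonged to values that did not pass, and the cause was not tested.

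Differences between days changed sign on log2 values (SOD days 14 and 4, -0.13; days 14 and 7, -0.0014) and on mean signed ranks (GSH-Px days 14 and 7, -0.333; SOD days 14 and 4, -0.300). Leaving out each cow gave -4.16 to 4.48 for GSH-Px days 14 and 7, -0.872 to 8.12 for days 7 and 4, -0.0926 to 0.0549 for SOD days 14 and 4, -0.0139 to 0.140 for days 14 and 7, -0.152 to 0.0570 for days 4 and 0, and -0.154 to 0.00147 for days 7 and 4. The supplemented minus control difference in change ran, for GSH-Px, from -8.19 to 8.38 (days 7 and 0), -14.1 to 7.95 (days 14 and 0) and -9.26 to 11.0 (days 14 and 7), and for SOD from -0.232 to 0.144 (days 4 and 0), -0.0990 to 0.253 (days 14 and 0) and -0.226 to 0.125 (days 14 and 7).

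Correlations between days changed sign as follows. Pearson's r was -0.184, -0.0929 and -0.0119 for SOD days 4 and 0, 7 and 4, and 14 and 7. Centring on the group gave 0.0140 for GSH-Px days 14 and 7 and -0.0769 for SOD days 14 and 0. Supplemented cows alone gave -0.371, 0.0286 and 0.657 for GSH-Px days 4 and 0, 14 and 4, and 14 and 7, and -0.657 and -0.371 for SOD days 7 and 0 and 14 and 0. Control cows alone gave -0.0857 for SOD days 14 and 7. Without the 2 outermost cows GSH-Px gave -0.370 (days 4 and 0) and 0.261 (days 14 and 4). Without recurring values SOD gave -0.143 (days 7 and 4). Leaving out each cow gave, for GSH-Px, -0.164 to 0.264 (days 4 and 0), -0.182 to 0.218 (7 and 0), -0.336 to 0.1 (14 and 4) and -0.255 to 0.118 (14 and 7), and for SOD -0.100 to 0.450 (4 and 0), -0.100 to 0.291 (14 and 0), -0.100 to 0.383 (7 and 4) and -0.0364 to 0.418 (14 and 7).

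Between the enzymes, supplemented cows alone gave -0.0857 on day 7, control cows alone 0.0857 on day 14 and 0.200 over the cow means, the means gave 0.0909 without the outermost 2 cows, and removal of recurring values gave -0.0424 on day 7 and 0.224 over the means. Leaving out each cow gave -0.0727 to 0.309 on day 7 and -0.464 to 0.0364 over the means, and, for changes, -0.145 to 0.218 (days 7 and 0) and -0.417 to 0.0333 (days 14 and 4).

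With the other readouts, Pearson's r was -0.0597 (GSH-Px and TBARS, day 14), 0.197 and -0.132 (SOD and AC, days 4 and 14) and -0.0862 (SOD and TBARS, day 4). Centring gave -0.00614 and 0.179 for SOD and TBARS on days 4 and 7 and -0.0772 for SOD and milk. Without the outermost 2 cows the values were 0.164 for GSH-Px and AC on day 0, 0.191 and -0.0453 for GSH-Px and TBARS on days 7 and 14, 0.333 for SOD and AC on day 7 and 0.224 for SOD and SOD1.

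Days were paired within cows in all comparisons of days. Between supplemented and control cows, no paired analysis was possible because the cows of the groups are different animals and their numbers carry no pairing. The narrowest interval of a GSH-Px difference relative to day 0 ran from -11.5% to 23.3% of the day 0 mean. Of the 8 transcripts, 3 had an unadjusted p under 0.05 with DESeq2 size factors, 2 with TMM and 1 with unscaled counts. The share over all genes was counted with TMM only, at 14.4% with GSH-Px and 5.37% with SOD. The counts under the other scalings therefore have no such share beside them.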
